A study of Mus musculus with 12 samples.

Results

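The genes described here are the interleukin 6 (IL-6) family members Il6, Lif, Il11 and Clcf1, which encode secreted ligands, Il6st, Il6ra, Lifr and Osmr, which encode receptor chains, and Stat3 and Socs3, which encode a transcription factor and a feedback inhibitor that act inside the cell. They were chosen by gene symbol, so 10 of the 27998 genes in the count matrices were members, and each symbol matched 1 row. Their levels were measured by single-cell RNA sequencing of joint cells of the mouse in serum transfer-induced arthritis (STIA), a model in which mice receive serum of arthritic K/BxN animals and their joints swell and then recover. There were 12 libraries in 4 groups of 3, labelled rest, peak, resolving and resolved. All animals were wild-type C57BL/6 mice, males of 8 to 10 weeks by the methods of the study. The libraries labelled rest came from mice without serum at day 0, and the others from mice given 100 µl of K/BxN serum intravenously and taken on day 7, 8 or 9 for the label peak, on day 15 for resolving and on day 22 for resolved. Each library pooled the hind limb joints of 3 animals, digested with collagenase and sorted as live cells without CD45, a surface protein of immune cells. Immune cells, a known source of family ligands such as oncostatin M, were therefore mostly removed, and n counts pools of animals.

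Cytokines of this family act through the shared receptor chain gp130, the product of Il6st. IL-6 and IL-11 first bind their own receptor chain (for IL-6 the product of Il6ra), while LIF joins gp130 with the product of Lifr, and oncostatin M joins it with that of Osmr or Lifr. The joined chains activate Janus kinases, which phosphorylate STAT3, and STAT3 induces Socs3, whose product binds gp130 and shuts the signal off. In joints, IL-6 made by fibroblast-like synoviocytes and other stromal cells is a known driver of synovitis and a drug target in rheumatoid arthritis.

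After the study's limits on genes and unique molecular identifiers (UMIs, tags of single captured RNA molecules), 20060 of 21042 cells remained, 1227 to 2747 per library, with 7468914 to 16566202 UMIs per library. No cell barcode was shared between libraries. Clustering without the members, the other genes of the pathway and Hk2 gave 26 clusters, which were named from marker genes, so each name means resemblance to its markers. There were 12064 fibroblasts in 11 clusters (60.1% of the cells), 1771 vascular endothelial cells, 1395 osteoblasts, 748 tenocytes, 692 proliferating cells, 654 perivascular cells, 312 chondrocytes, 266 muscle cells, 186 lymphatic endothelial cells, 112 immune cells, led by neutrophil genes such as Ngp and S100a8, and 108 Schwann cells, and 1752 cells stayed unnamed. UMIs were summed per library and cell type and scaled to the total of the same sum (CPM). The labels did not separate the libraries. Barcode suffixes number the libraries from 1 to 12, and the library most like each one came from its own run of 3 neighbouring suffixes in 12 of 12 cases and carried its label in 0 of 12. The labels do not say what a suffix stands for, so a group below means the libraries that carry a label, and the runs of suffixes are described beside the labels without reading a condition from them.

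On GRCm38 (GENCODE M21), all 10 members are protein-coding genes. The ligand genes lie on chromosome 5 from 30013114 to 30019981, plus strand (Il6), chromosome 11 from 4257557 to 4272514, plus strand (Lif), chromosome 7 from 4772373 to 4782859, minus strand (Il11), and chromosome 19 from 4214238 to 4223490, plus strand (Clcf1). The receptor genes lie on chromosome 13 from 112464070 to 112510086, plus strand (Il6st), chromosome 3 from 89864059 to 89913196, minus strand (Il6ra), and chromosome 15, where Osmr (6813577 to 6874969, minus strand) and Lifr (7090614 to 7197489, plus strand) are neighbours on opposite strands. Stat3 (100885098 to 100939540) and Socs3 (117966079 to 117970047) lie on the minus strand of chromosome 11.

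The stretches before the transcription start are shown for the ligands Il6, Lif and Il11 and for the feedback gene Socs3, because their levels differed between cell groups and because the sites of the transcription factors known to drive such genes can be read in them. They are from RefSeq on GRCm38.p6, written 5′ to 3′ on the gene's strand, and 9 of the 10 members had a promoter in the table. The start meant is that of RefSeq. For Il11 and Socs3 the stretches shown lie inside the gene spans given above. Capitals mark matches to the letters of AP-1 (TGANTCA), NF-kB (GGGA, any 2 bases, TTCC), C/EBP (TTGCNNAAT) and STAT (TTCNNNGAA) sites, searched on both strands, and no match overlapped another.
Il6, chr5:30012864-30013113, plus strand: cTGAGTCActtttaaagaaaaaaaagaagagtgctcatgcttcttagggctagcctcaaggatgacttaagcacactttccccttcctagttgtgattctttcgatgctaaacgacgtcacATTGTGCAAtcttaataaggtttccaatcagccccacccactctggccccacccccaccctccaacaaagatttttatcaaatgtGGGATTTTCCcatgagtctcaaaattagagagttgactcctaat
Lif, chr11:4257318-4257407, plus strand: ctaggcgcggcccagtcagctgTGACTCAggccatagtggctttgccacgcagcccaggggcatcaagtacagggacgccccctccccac
Il11, chr7:4778142-4778291, minus strand: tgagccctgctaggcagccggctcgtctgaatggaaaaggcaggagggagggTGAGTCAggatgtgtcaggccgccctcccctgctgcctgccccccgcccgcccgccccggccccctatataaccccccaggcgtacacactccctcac
Socs3, chr11:117969407-117969556, minus strand: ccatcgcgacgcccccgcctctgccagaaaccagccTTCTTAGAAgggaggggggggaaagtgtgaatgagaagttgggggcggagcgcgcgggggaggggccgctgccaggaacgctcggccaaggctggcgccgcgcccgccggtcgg

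The Il6 window held matches for AP-1 at 249, C/EBP at 129 and NF-kB at 44 bases before the start. Lif and Il11 each held 1 AP-1 match, at 228 and 98 bases before the start, and Socs3 held 1 STAT match at 154 bases before it. Among 32851 promoter windows of 300 bases, 7.81% held the AP-1 letters, 8.30% the STAT letters, 2.40% the C/EBP letters and 1.47% the NF-kB letters. Of the 11 windows of members, 4 held AP-1 letters, the other being Osmr, with a match after its start. A match is a run of letters and was not tested for binding.

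Each other cell type was then compared with the fibroblasts of the same libraries in edgeR, with the library as a block. A gene is called when its adjusted p lies under 0.05 and its log2 fold change exceeds 0.5 in size, a fold fitted after TMM normalization that can differ from the ratio of the mean CPM. All 10 members passed the filter on low counts. In the 100 pairs of member and cell type, 14 were higher and 36 lower than in fibroblasts, and over the 8960 genes tested the share called in either direction was 35.0% (13.8% higher, 21.2% lower). The members' share in both directions together was thus above the background, mostly through lower levels. The plot of members by cell type shows the library values behind these counts.

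The types differed in how many members they set apart. In osteoblasts 2 members were higher and 7 lower, beside 12.7% and 16.5% of all genes, the most calls of a type. Vascular endothelial cells had 2 higher and 4 lower (25.9% and 27.5% of all genes), lymphatic endothelial cells 1 and 4 (13.7% and 27.3%), and perivascular cells 2 and 2 (18.0% and 23.3%). Chondrocytes had 2 higher and 3 lower (19.9% and 28.6%), muscle cells 2 and 3 (12.4% and 28.3%) and tenocytes 3 and 1 (7.86% and 12.4%). In immune cells 6 members were lower, beside 21.0% of all genes, in proliferating cells 5, beside 17.0%, and in Schwann cells 1, beside 10.1%, and no member was higher in these 3 types. Against these shares the perivascular and vascular endothelial counts are near the background, and those of osteoblasts, immune and proliferating cells are above it in the lower direction.

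**Figure D1:**
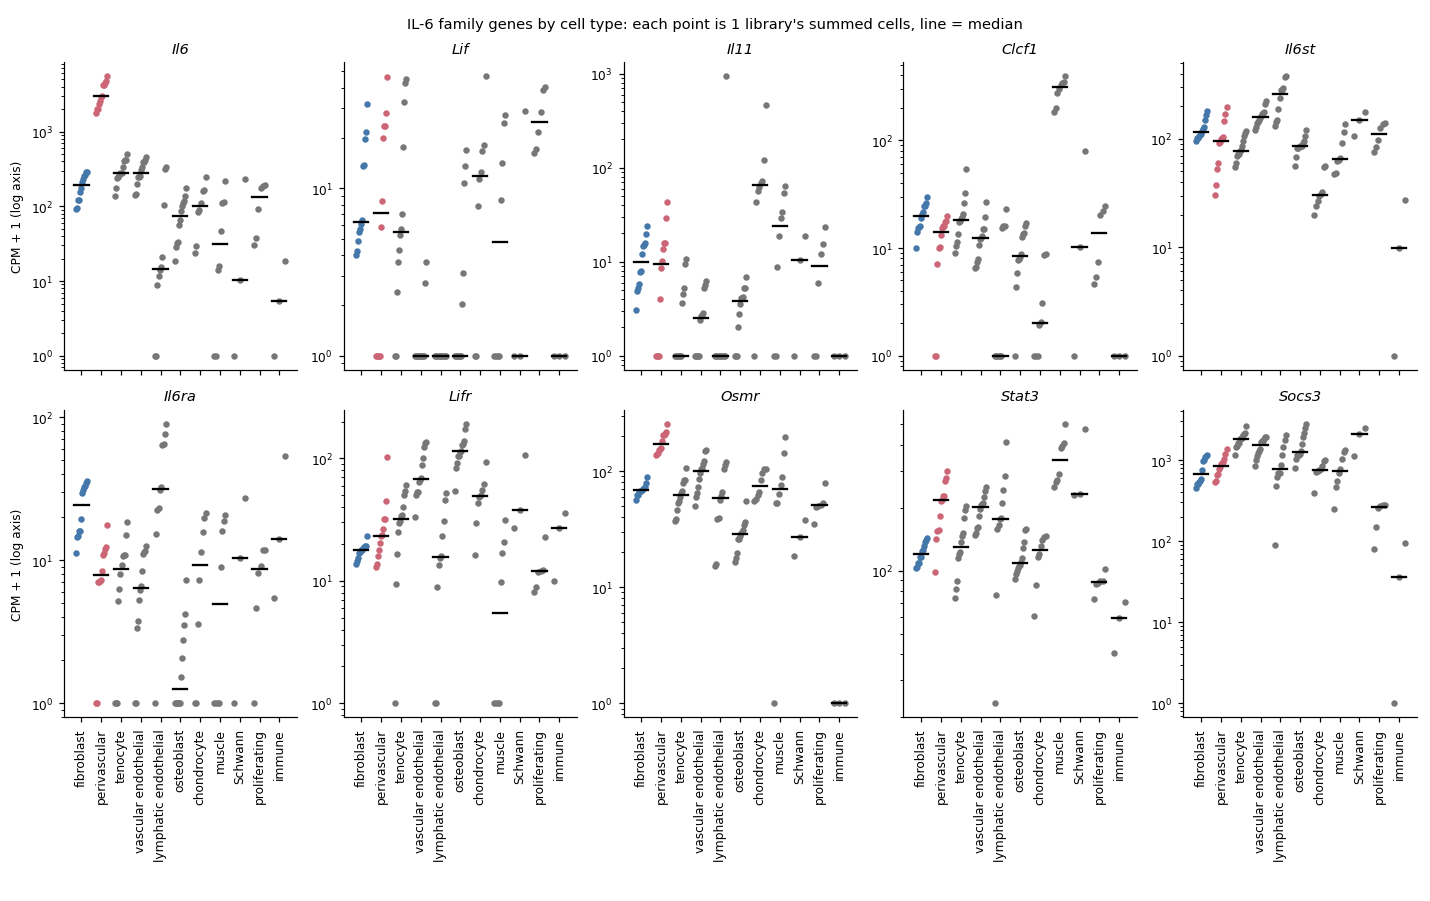
Levels of the 10 members by cell type, in CPM plus 1 on a log axis, 1 panel a gene; each point is 1 library's sum of at least 10 cells of that type, ordered by value, and each line the median. Il6 in perivascular cells (1759 to 5521 CPM), Clcf1 in muscle cells (183 to 393 CPM) and Lifr in osteoblasts (53.6 to 192 CPM) lay above every fibroblast sum.

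Il6, the ligand that names the family, was highest in perivascular cells, the pericytes and smooth muscle cells that wrap small vessels. In barcode order their sums held 4772, 2300 and 2028 CPM, then 2012, 3003 and 2914, then 2556, 1759 and 4228, and last 4221, 5521 and 4428, from 25 to 151 cells each. The fibroblast sums of the same libraries held 232, 121 and 93.4 CPM, then 213, 282 and 258, then 153, 91.1 and 121, and last 283, 172 and 254. Every perivascular sum was above every fibroblast sum, in all 4 runs and under all 4 labels. The means were 3312 ± 1262 and 189 ± 73.0 CPM (SD, n = 12 libraries), and the log2 fold change was 3.88 (SE 0.28, edgeR adjusted p = 1.08e-22), a fitted difference of 14.7-fold, with 3.69 to 4.01 under the other settings tried. The other members called in these cells were Osmr, which was higher, and Clcf1 and Il6ra, which were lower.

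Perivascular cells were 3.26% of the kept cells and held 9007 Il6 UMIs, beside 15481 in the 12064 fibroblasts. An Il6 UMI was seen in 454 of 654 perivascular cells (69.4%, Wilson 95% interval 65.8% to 72.8%, median depth 3882 UMIs per cell) and in 24.1% of fibroblasts (median 5496). In the immune cells, whose leading genes are those of neutrophils, it was seen in 4 of 112 (3.57%, median 3720 UMIs), which is the lowest share of a named type and is given as the level that free RNA in the droplets could leave. After each cell was thinned to 2000 UMIs, the shares were 62.7% in perivascular cells, 17.8% in tenocytes, 16.9% in vascular endothelial cells, 15.5% in fibroblasts, 13.6% in proliferating cells and 2.83% in immune cells. The intervals cover counting error only.

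The other types followed far below. Tenocytes averaged 306 ± 106 and vascular endothelial cells 294 ± 106 CPM of Il6 (SD, n = 12), and neighbours in this order differed by less than their spreads from tenocytes down to fibroblasts and on to muscle cells. The tenocyte difference from fibroblasts was called (log2 fold change 0.77, SE 0.27, edgeR adjusted p = 0.024) but turned to -0.35 at Leiden resolution 0.5 and to -0.41 without upper limits per cell. In both of these settings the name tenocyte covered more cells than the 748 of the main clustering. Il6 was lower than in fibroblasts in osteoblasts, at 79.3 ± 49.7 CPM (-1.38, SE 0.28, edgeR adjusted p = 2.34e-05, lower in 12 of 12 libraries). It was also lower in muscle (-2.03), lymphatic endothelial (-1.83), proliferating (-0.94) and immune cells, whose sums held 2 Il6 UMIs (30.3-fold lower as pooled counts, exact 95% interval 8.38 to 250).

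Lif encodes leukaemia inhibitory factor, a ligand of bone and stem cell biology. Its fibroblast sums averaged 10.5 ± 8.90 CPM (SD, n = 12; lowest 3.00, median 5.32, highest 30.9). Proliferating cells had 26.1 ± 10.6 CPM (SD, n = 6) and were above the fibroblasts of their library in 6 of 6 libraries, but their log2 fold change of 0.49 was not called. Lif was lower in osteoblasts, at 3.46 CPM (-1.53, SE 0.38, edgeR adjusted p = 4.78e-04). Vascular endothelial cells held 2 Lif UMIs in 1771 cells, with 10 of 12 libraries at 0, a pooled level 40.3-fold lower than in fibroblasts (exact 95% interval of the counts 11.1 to 333). Lymphatic endothelial cells held none in 10 libraries, at least 2.78-fold lower than fibroblasts against a floor of 3 UMIs over the group. Endothelial cells of both kinds thus differed from fibroblasts in Lif, while their Il6 levels were 294 and 82.0 CPM.

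Il11 encodes a ligand of bone turnover and fibrosis, and it was highest in chondrocytes, the cells of cartilage. Their 8 sums ranged from 0 to 466 CPM with a median of 64.4, beside 2.03 to 23.1 CPM with a median of 8.98 in the 12 fibroblast sums. The chondrocyte sum was the larger in 7 of 8 libraries, with a log2 fold change of 3.75 (SE 0.39, edgeR adjusted p = 4.25e-14, 3.23 to 4.43 under the other settings). Chondrocytes were deep cells, with a median of 12534 UMIs, and an Il11 UMI was seen in 23.1% of them, and in 10.9% after thinning to 2000 UMIs.

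The call of Il11 in lymphatic endothelial cells (2.19) rests on peak 2, 1 library of 10, whose 66 UMIs lay in 2 cells, 46 of them in 1, while the other 9 held none. With likely doublets removed, the 8 sums left held no Il11 UMI, at least 1.97-fold lower than fibroblasts. Il11 was lower than in fibroblasts in vascular endothelial cells (1.74 CPM, -2.52) and osteoblasts (2.43 CPM, -1.77). Osteoblasts and chondrocytes thus lay on opposite sides of fibroblasts for this ligand.

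Clcf1 encodes cardiotrophin-like cytokine factor 1, which acts on the receptor of ciliary neurotrophic factor. It was highest in muscle cells, a cluster with the satellite cell genes Pax7, Myod1 and Cdh15. The 8 muscle sums lay between 183 and 393 CPM (median 311) and the 12 fibroblast sums between 9.09 and 28.5 (median 18.9), with no overlap. The means were 295 ± 73.3 (SD, n = 8) and 18.8 ± 5.76 CPM (SD, n = 12), with a log2 fold change of 3.82 (SE 0.20, edgeR adjusted p = 1.35e-29), a fitted 14.1-fold. A Clcf1 UMI was seen in 100 of 266 muscle cells (37.6%), although their median depth was 2570 UMIs, under that of fibroblasts. Clcf1 was lower than in fibroblasts in chondrocytes (2.44 CPM, -2.82, no overlap), lymphatic endothelial (-2.35), vascular endothelial (-1.13), osteoblast (-1.10) and perivascular sums (-0.88). In immune cells it was at 0, at least 1.90-fold lower.

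Il6st, the shared receptor chain of the family, was detected in every named cell type. Fibroblasts had 123 ± 27.1 CPM (SD, n = 12; lowest 94.4, median 114, highest 178). Lymphatic endothelial cells had 245 ± 91.8 (SD, n = 10) and vascular endothelial cells 161 ± 30.3 CPM (SD, n = 12), and neither was called at TMM scaling, while the lymphatic difference was called under 3 other settings (0.51 to 0.74). The lowest level outside the immune cells was in chondrocytes, at 33.2 ± 13.5 CPM (SD, n = 8), with every sum under every fibroblast sum (-1.77, SE 0.19, edgeR adjusted p = 2.60e-13). Il6st was also lower in muscle (-0.88), osteoblasts (-0.61) and immune cells (-3.68).

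Il6ra encodes the chain that binds IL-6 itself and decides whether a cell can answer IL-6 directly. Its mean was 23.0 ± 9.39 CPM in fibroblasts (SD, n = 12; lowest 10.2, median 23.5, highest 34.9), 41.0 ± 29.4 in lymphatic endothelial cells (SD, n = 10) and 23.3 ± 25.4 in immune cells (SD, n = 3), and these 3 did not differ beyond their spread. It was lower than in fibroblasts in 7 of the 10 other types and higher in none. The lowest was the osteoblast level, with 11 UMIs in 1395 cells, 6 of 12 libraries at 0 and a mean of 1.28 CPM (-4.28, SE 0.33, edgeR adjusted p = 4.02e-21, no overlap). Vascular endothelial (-2.17), perivascular (-1.63), tenocyte (-1.58), muscle (-1.52), chondrocyte (-1.31) and proliferating cells (-1.05) followed. The perivascular cells thus combined the highest Il6 with an Il6ra level of 7.59 CPM.

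Lifr encodes the receptor chain for LIF and for ligands that share it. Osteoblasts, the lowest type in Il6ra, were the highest in Lifr. They held 53.6 to 192 CPM (median 113) and fibroblasts 12.8 to 22.3 (median 16.9), with no overlap in 12 against 12 sums. The log2 fold change came to 2.65 (SE 0.14, edgeR adjusted p = 3.15e-30), the means being 119 ± 37.8 and 16.7 ± 2.52 CPM (SD, n = 12). Vascular endothelial cells, at 32.0 to 134 CPM, were also above every fibroblast sum (1.93, SE 0.15, edgeR adjusted p = 2.32e-21). Chondrocytes were higher in 8 of 8 libraries (48.9 ± 23.1 CPM, 1.57, edgeR adjusted p = 1.58e-09). The tenocyte call (0.88) came to 0.02 at Leiden resolution 0.5 and to -0.29 without upper limits per cell. Both settings gave the name tenocyte to more cells. Of the 9 members called in osteoblasts, Lifr and Socs3 were thus the 2 that were higher.

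Osmr, the specific chain for oncostatin M, was highest in perivascular cells, like Il6. Their 12 sums ranged from 136 to 256 CPM (median 169) and the fibroblast sums from 55.4 to 87.4 (median 67.6), with no overlap. The means were 179 ± 38.1 and 68.4 ± 8.31 CPM (SD, n = 12), and the log2 fold change was 1.18 (SE 0.13, edgeR adjusted p = 9.28e-13). The perivascular mean exceeded that of the next type, vascular endothelial cells at 97.1 ± 33.3 CPM (SD, n = 12), by more than the sum of both SDs. Osteoblasts were low, at 28.2 ± 10.3 CPM, with no overlap (-1.43, SE 0.15, edgeR adjusted p = 6.76e-14). The immune sums held no Osmr UMI, at least 8.17-fold lower. The lower levels in lymphatic endothelial cells (-0.78) and Schwann cells (-1.77) were not called under another scaling (RLE size factors).

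Stat3, the transcription factor that carries the signal to the nucleus, was highest in muscle cells, at 250 to 504 CPM (median 338), beside 102 to 142 in fibroblasts (median 119). The groups did not overlap, and the log2 fold change was 1.19 (SE 0.16, edgeR adjusted p = 9.00e-10). Muscle cells thus had the highest mean of both Clcf1 and Stat3, though Schwann cells, at 311 ± 140 CPM of Stat3 (SD, n = 3), did not differ from them beyond the spread. In vascular endothelial cells Stat3 was above the fibroblasts in 12 of 12 libraries without overlap (195 ± 34.8 CPM, SD, n = 12), but its log2 fold change of 0.39 was under the fold limit.

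Socs3, the feedback gene, was called higher than in fibroblasts in 3 types and lower in 2. Schwann cells had the highest mean, 1880 ± 699 CPM (SD, n = 3), which did not differ from that of tenocytes beyond the spread. They were above the fibroblasts in 3 of 3 libraries. Their log2 fold change of 0.46 was not called, but it was under 2 other settings (0.91 in each). Fibroblasts ranged from 448 to 1146 CPM (median 671) and tenocytes from 1167 to 2630 (median 1836), without overlap (1.37, SE 0.18, edgeR adjusted p = 6.02e-10). Osteoblasts (1560 ± 634 CPM, 0.90, SE 0.18, edgeR adjusted p = 9.90e-06) and vascular endothelial cells (1458 ± 374 CPM, 0.67, SE 0.17, edgeR adjusted p = 4.64e-04) were each higher in 12 of 12 libraries (SD, n = 12). Proliferating cells were lower, at 219 ± 84.8 CPM (SD, n = 6), with no overlap (-1.69, edgeR adjusted p = 8.67e-09), and so were immune cells (42.9 CPM, -3.62). Immediate early and heat shock genes, which tissue digestion is known to induce, were read beside Socs3. Of 19 such genes tested, 10 were higher and none lower in tenocytes, 4 higher and 3 lower in osteoblasts, 6 higher and 2 lower in vascular endothelial cells, 16 lower in proliferating cells and 17 lower in immune cells, none being higher in these 2 types. In muscle cells, where Socs3 was not called (-0.44), 8 were higher and 3 lower. These counts stand beside the shares of all genes given above for each type, and the part of these genes in the Socs3 differences was not tested.

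The other genes of the pathway were taken from a list of 44 ligands, receptors, kinases, feedback genes, STAT3 targets and genes of receptor shedding and Il6 mRNA decay, of which 33 passed the filter on low counts. Against fibroblasts, 11 were higher and 10 lower in perivascular cells, beside 18.0% and 23.3% of all genes. In vascular endothelial cells the counts were 10 and 9 (25.9% and 27.5%), near these shares. In muscle they were 9 and 8 (12.4% and 28.3%) and in osteoblasts 6 and 9 (12.7% and 16.5%). Tenocytes had 8 and 7 (7.86% and 12.4%) and chondrocytes 7 and 11 (19.9% and 28.6%). The largest perivascular changes, apart from a call of Ptpn6 that rests on 4 UMIs beside 14 in fibroblasts, were higher Steap4 (1.79) and Arid5a (1.68), whose product stabilizes Il6 mRNA, and lower Lcn2 (-3.67), Il11ra1 (-2.71) and Lrg1 (-2.71). In muscle cells Zc3h12a (2.09) and Pim1 (2.00) were among the highest changes, while Lcn2 (-5.45) and Timp1 (-2.26) were lower and Cntfr held no UMI, at least 2.46-fold lower. In osteoblasts Cntfr (1.26) and Cish (1.05) were higher, and Lcn2 (-5.61) and Steap4 (-3.53) lower. Vascular endothelial cells had higher Lrg1 (5.40) and Cish (2.14), and lower Timp1 (-4.28) and Lcn2 (-4.25).

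Il11ra1, the specific receptor chain for IL-11, averaged 516 CPM in fibroblasts and 77.0 CPM in chondrocytes (-2.75, SE 0.20, edgeR adjusted p = 2.44e-22). The chondrocytes thus had the highest Il11 of the named types beside a level of its receptor that was lower than in fibroblasts. Osm, the ligand of OSMR, held 60 UMIs in the 72 cells of the immune sums and 4 in the 12064 fibroblasts. It passed the filter on low counts through the immune sums, so no test of it is given, and those sums come from few cells that passed a sort against CD45. Its call among the 6 higher genes of osteoblasts rests on 4 UMIs beside 4 in fibroblasts and is not read as a difference. Nor is that of Ptpn6 among the 11 higher genes of perivascular cells. Ptpn6 too was high in the immune sums (104 CPM, beside 0.175 in fibroblasts).

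Among the fibroblasts the members were spread unevenly over the clusters, which are described without a test and ordered among the 10 with sums from at least 6 libraries. The cluster of Rsad2, Ifit1 and Iigp1 (82 cells) had sums from 2 libraries and is left out. The unnamed Spon2 cluster (1531 cells), which carried fibroblast markers and is described at the end, is not among them either. Il6 was highest in the cluster of Ifi205, Apoe and C4b (1524 cells), at 716 ± 293 CPM (SD, n = 12; 294 to 1138), and above the other fibroblasts in 12 of 12 libraries. The cluster of Ccl11, Fmo2 and Hmcn2 followed with 416 ± 267 CPM and was also above in 12 of 12. The cluster of Clu, Tnfrsf11b and Spp1 was lowest, at 40.5 ± 45.2 CPM and above in 0 of 12. After thinning to 2000 UMIs, Il6 was seen in 37.4%, 25.1% and 3.89% of the cells of these 3 clusters. A small number of cells held much of it, since the 121 fibroblasts with the most Il6 (1%) held 27.1% of the 15481 fibroblast UMIs and the 603 with the most (5%) held 65.4%.

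**Figure D2:**
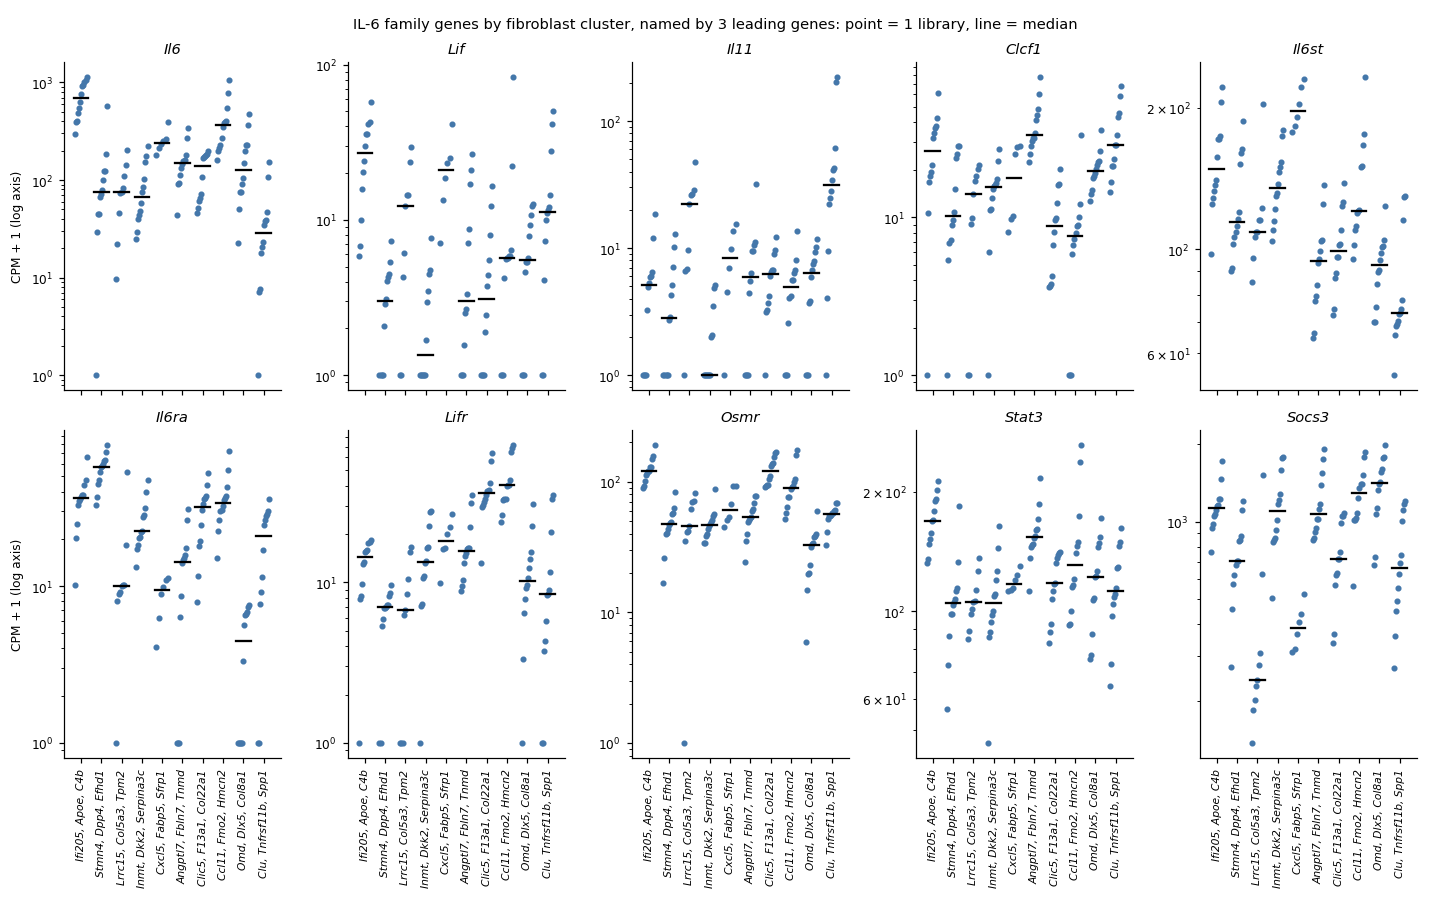
Levels of the 10 members in the fibroblast clusters, in CPM plus 1 on a log axis, 1 panel a gene; each point is 1 library's sum of at least 10 cells of that cluster, ordered by value, and each line the median, and clusters are named by their leading genes. Il6 and Lif were highest in the Ifi205 cluster (means 716 and 26.2 CPM), Il6ra in the Stmn4 cluster (54.6) and Lifr in the Ccl11 and Clic5 clusters (42.2 and 36.3).

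The other ligands had other leading clusters. Lif was highest in the same Ifi205 cluster (26.2 ± 16.2 CPM, above in 12 of 12 libraries) and next in the cluster of Cxcl5, Fabp5 and Sfrp1 (20.4 ± 11.8 CPM, n = 6, above in 5 of 6). Il11 was highest where Il6 was lowest, in the Clu cluster (56.8 ± 74.3 CPM, above in 10 of 12), which carries cartilage genes such as Cilp, Cilp2 and Chad among its leading genes. Clcf1 was highest in the cluster of Angptl7, Fbln7 and Tnmd (38.8 ± 16.0 CPM, above in 12 of 12) and lowest in the Clic5 and Ccl11 clusters (8.51 and 7.67 CPM).

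Among the receptor chains, Il6ra led in a sublining cluster and Osmr was high in the lining. The cluster of Stmn4, Dpp4 and Efhd1, which had 5 of 5 sublining markers, was highest in Il6ra (54.6 ± 13.6 CPM, above the other fibroblasts in 12 of 12 libraries) and lowest in Lifr (5.26 ± 2.71 CPM, above in 0 of 12). The cluster of Clic5, F13a1 and Col22a1, which had 5 of 5 markers of the lining, the layer that faces the joint space, was high in Lifr (36.3 ± 13.1 CPM, above in 11 of 12) and in Osmr (123 ± 29.5 CPM, above in 12 of 12). Osmr was about as high in the Ifi205 cluster (125 ± 28.9 CPM), and Lifr was highest in the Ccl11 cluster (42.2 ± 16.3 CPM). The cluster of Omd, Dlx5 and Col8a1 was lowest in both Il6ra (3.06 ± 2.90 CPM) and Osmr (28.8 ± 14.1 CPM) but highest in Socs3 (1372 ± 410 CPM, above in 12 of 12). Il6st spanned a narrower range, from 82.4 CPM in the Clu cluster to 200 ± 21.4 CPM in the Cxcl5 cluster. Socs3 was lowest in the Cxcl5 cluster (393 ± 80.2 CPM, n = 6) and in that of Lrrc15, Col5a3 and Tpm2 (413 ± 437 CPM, n = 9).

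Between the labels, the members did not pass the test in fibroblasts. In edgeR 0 of 10 members were called at peak, resolving or resolved against rest, and the share called over all 11893 genes was 0.00%. At an unadjusted p under 0.05 there were 79 (0.664%), 99 (0.832%) and 66 (0.555%) genes and no member. These shares lie under what that limit allows without any difference. The model had no block for the runs of suffixes, whose differences widen the spread within a label, so it can miss changes between labels. A fit of the labels with the runs as a block was also made, and its calls are not reported here. DESeq2 called 0, 1 and 1 genes, none of them a member. The lowest unadjusted p of a member in edgeR was that of Osmr at resolved (0.0652), with 70.4, 71.2 and 87.4 CPM beside 55.4, 65.0 and 65.8 at rest. These libraries did not overlap. How many of all genes are free of overlap in this way was not counted, so no difference in Osmr is read from it. The spread within a label was wide. Il6 averaged 212 ± 82.6 CPM at rest, 221 ± 87.3 at peak, 139 ± 41.0 at resolving and 186 ± 84.8 at resolved (SD, n = 3), and Socs3 averaged 680 ± 277, 822 ± 299, 884 ± 269 and 690 ± 365 CPM. Apart from Osmr at resolved, the libraries of each later label overlapped with those at rest for each member.

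Between the runs of barcode suffixes the same libraries differed clearly. Against suffixes 1 to 3, 7 of 10 members were called in suffixes 4 to 6 (5 higher, 2 lower), 3 in 7 to 9 (1 higher, 2 lower) and 0 in 10 to 12, while 34.0% (16.1% higher, 17.9% lower), 19.2% (10.1% and 9.14%) and 1.78% (1.23% and 0.555%) of all genes were called. In a test of any difference between the 4 runs, 8 members had an adjusted p under 0.05, beside 52.8% of all genes. Each run holds libraries of 3 labels. The runs were formed with earlier results of these libraries known, so these tests are no independent evidence that the runs differ.

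**Figure D3:**
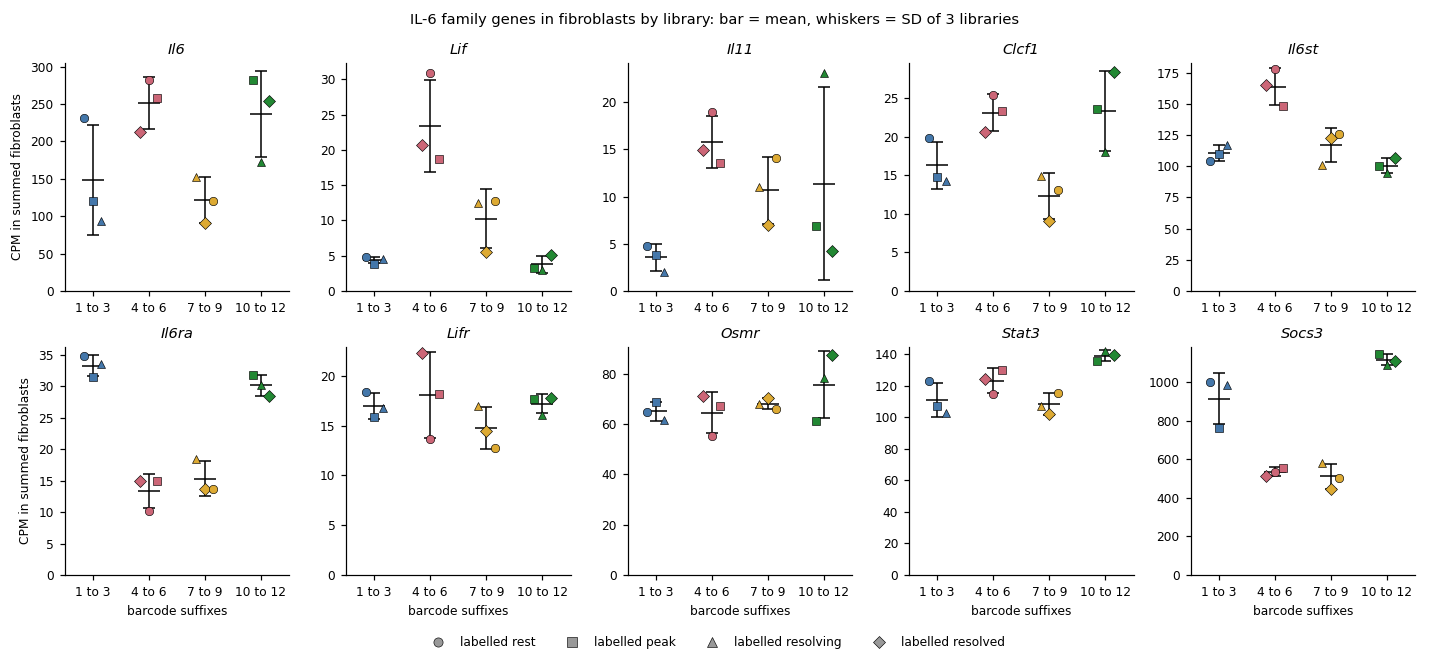
Levels of the 10 members in the fibroblast sums of the 12 libraries, in CPM from 0, 1 panel a gene, against the run of barcode suffixes; marker shapes give the stage label, bars the mean and whiskers the SD of 3 libraries. Socs3 and Il6ra were high in suffixes 1 to 3 and 10 to 12 and low in 4 to 9, and Lif was highest in 4 to 6 (18.7 to 30.9 CPM).

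Lif rose most among the ligands. In barcode order it held 4.75, 3.86 and 4.52 CPM, then 20.6, 30.9 and 18.7, then 12.5, 5.48 and 12.8, and last 3.23, 3.00 and 5.16. Suffixes 4 to 6 lay above all the others (log2 fold change 2.50, SE 0.33, edgeR adjusted p = 4.02e-05). The difference of suffixes 7 to 9 (1.17, edgeR adjusted p = 0.032) was lost without any of 5 libraries, rest 1, rest 3, peak 1, resolving 1 and resolving 2 (0.91 to 1.22 without them). Il11 was also higher in 4 to 6, at 14.9, 18.9 and 13.6 CPM beside 4.75, 3.86 and 2.03 (2.19, SE 0.53, edgeR adjusted p = 0.0042). Il6 (0.84, edgeR adjusted p = 0.031) and Clcf1 (0.58, edgeR adjusted p = 0.038) passed the threshold in 4 to 6 too, but each lost it without any of rest 2, peak 1, peak 2 and resolving 1 (0.58 to 0.83 and 0.48 to 0.59 without them).

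The receptor chains Il6ra and Il6st changed in opposite directions in suffixes 4 to 6. Il6ra was at 34.9, 31.5 and 33.5 CPM in suffixes 1 to 3, at 14.9, 10.2 and 14.9 in 4 to 6, at 18.5, 13.6 and 13.7 in 7 to 9 and at 31.8, 30.2 and 28.5 in 10 to 12. The 6 sums of the middle runs lay below the other 6 (-1.26, SE 0.15, edgeR adjusted p = 1.70e-05, and -1.10, SE 0.15, edgeR adjusted p = 1.87e-04). Il6st was higher in 4 to 6, at 165, 178 and 149 CPM beside 104, 110 and 117 (0.64, SE 0.11, edgeR adjusted p = 3.44e-04). Lifr and Osmr did not pass the test in any run, and over the 4 runs together their edgeR adjusted p was 0.309 and 0.158.

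Socs3 held 999, 762 and 983 CPM in suffixes 1 to 3, 512, 536 and 557 in 4 to 6, 580, 448 and 505 in 7 to 9 and 1146, 1090 and 1110 in 10 to 12. It fell by 0.70 (SE 0.12, edgeR adjusted p = 3.45e-04) and 0.82 (SE 0.12, edgeR adjusted p = 2.69e-04) on the log2 scale in the middle runs, where the groups did not overlap. With cells thinned to 2000 UMIs the difference in 4 to 6 was -0.25 and no longer called. Stat3 differed little, with 136, 142 and 140 CPM in suffixes 10 to 12 above 123, 107 and 103 in 1 to 3 (0.42, under the fold limit). The summed level of the immediate early and heat shock genes moved with Socs3, from 23422 to 31306 CPM in suffixes 1 to 3, 17245 to 18058 in 4 to 6, 19171 to 20033 in 7 to 9 and 23289 to 29655 in 10 to 12. Of the 19 tested, 1 was higher and 6 lower in 4 to 6, beside 16.1% and 17.9% of all genes. Their part in the differences between runs was not tested.

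The makeup of the fibroblasts changed between runs as well. The Cxcl5 cluster made up 33.3% to 38.5% of the fibroblasts in suffixes 4 to 6, 6.11% to 6.90% in 7 to 9 and at most 0.0994% in the other runs. The Lrrc15 cluster made up 8.06% to 17.6% in 4 to 6, up to 43.2% in 7 to 9 and at most 1.44% elsewhere. These are the 2 clusters lowest in Socs3, and they were low in Il6ra too (7.53 and 13.4 CPM). So the members were compared again with an equal share of UMIs from each of the 8 clusters that had at least 10 cells in all 12 libraries. The Cxcl5 and Lrrc15 clusters did not meet this limit, so their cells were left out rather than given an equal weight. This alternative was chosen after the data were seen. It drew from 64672 UMIs per cluster in peak 2 to 691661 in peak 3, while the full fibroblast sums held 3129311 to 10223904 UMIs. Lower counts can also cost calls, and their part was not tested.

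Of the 8742 genes tested with equal shares, 4.69%, 3.40% and 0.721% were called in suffixes 4 to 6, 7 to 9 and 10 to 12. Among the members 1, 1 and 0 were called there, and both calls were Il6ra. It lay at 29.1 to 36.3 CPM in suffixes 1 to 3, 15.4 to 25.5 in 4 to 6 (-0.81, SE 0.22, edgeR adjusted p = 0.037) and 12.7 to 21.3 in 7 to 9 (-0.97, SE 0.21, edgeR adjusted p = 0.0091), without overlap. Socs3 turned, from a fall to 0.20 above suffixes 1 to 3 in 4 to 6 (SE 0.12, edgeR adjusted p = 0.390), with 1019, 1177 and 1203 CPM beside 907, 976 and 1157. In 7 to 9 it stayed lower but not past the threshold (-0.30, edgeR adjusted p = 0.176). The Lif difference in 4 to 6 came to 0.78 (edgeR adjusted p = 0.455), that of Il11 to 2.06 (0.113 for the same p), that of Il6 to 0.86 (0.0778) and that of Il6st to 0.44 (0.0548).

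**Figure D4:**
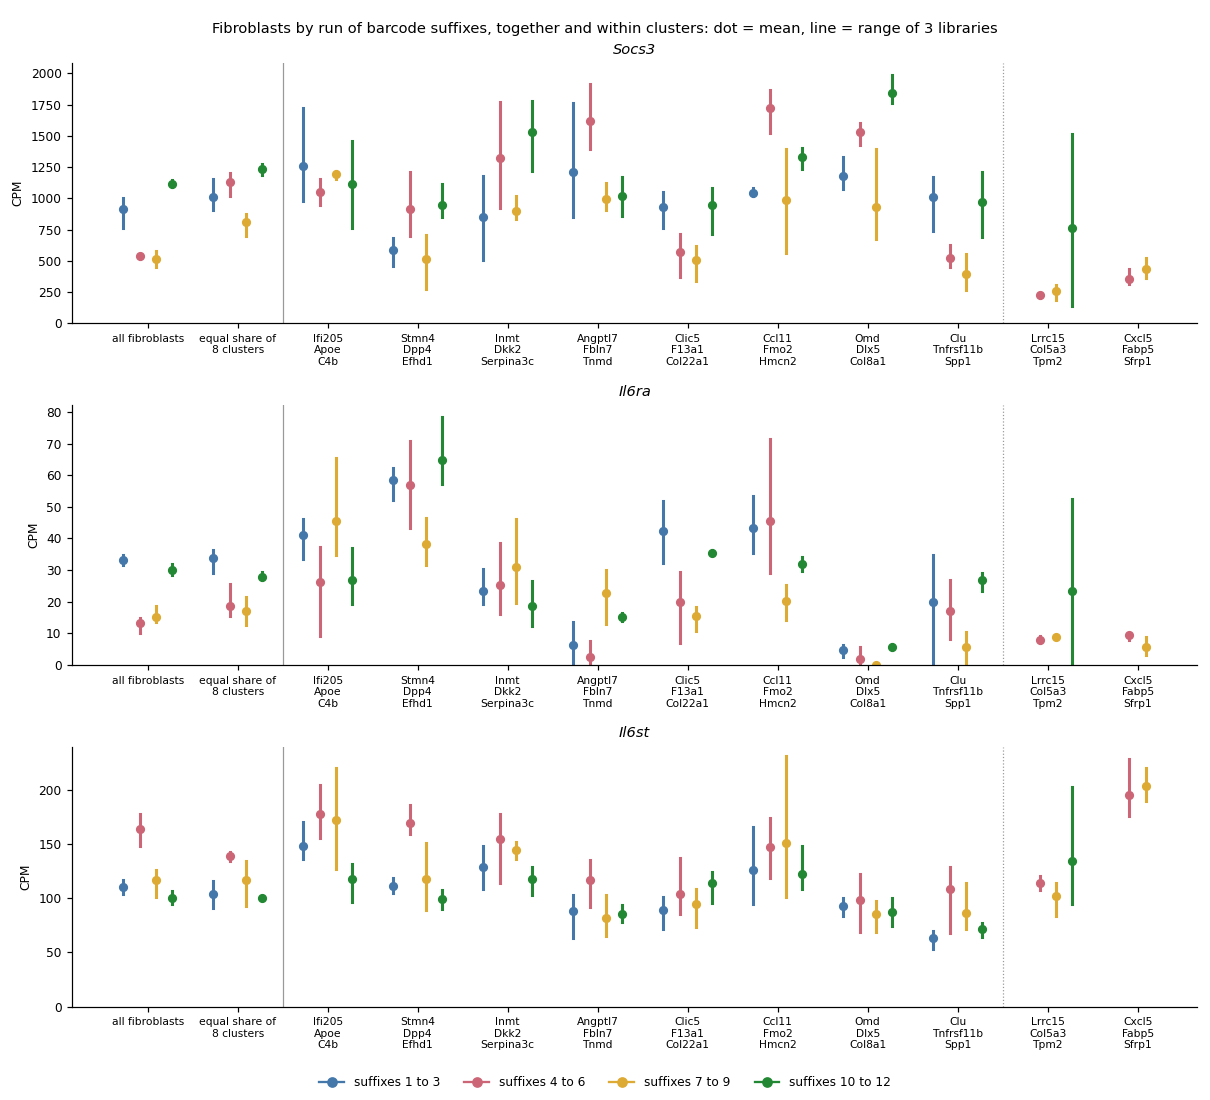
Socs3, Il6ra and Il6st within fibroblast clusters, in CPM, against the run of barcode suffixes; dots are the mean and lines the range of 3 libraries for all fibroblasts together, for an equal share of 8 clusters, for each of those 8 and for the Lrrc15 and Cxcl5 clusters. In suffixes 4 to 6 Socs3 was higher than in 1 to 3 in 5 of the 8 clusters and lower in 3, and Il6st was higher in 8 of 8.

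Within single clusters the Socs3 differences had both directions. In the sublining Stmn4 cluster the 3 libraries of suffixes 4 to 6 held 700 to 1207 CPM, above the 458 to 680 of suffixes 1 to 3. The Ccl11 cluster (1524 to 1871 against 1017 to 1080) and the Omd cluster (1429 to 1604 against 1075 to 1329) had the same direction, with no overlap. In the lining Clic5 cluster suffixes 4 to 6 held 366 to 716 CPM, below the 760 to 1048 of suffixes 1 to 3, and the Clu cluster had 448 to 626 against 739 to 1170, again with no overlap. The sublining and the lining clusters thus lay on opposite sides, and this contrast between them was not tested.

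Il6ra within clusters was lower in 6 of 8 in suffixes 4 to 6 and in 5 of 8 in 7 to 9. Il6st was higher in 8 of 8 clusters in 4 to 6, although only 1 was free of overlap, as was Stat3 in 7 of 8, 4 of them free of overlap. In the sublining cluster Il6st had 159 to 186 CPM in suffixes 4 to 6 and 105 to 119 in 1 to 3.

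Of the 33 genes of the pathway list that were tested, 8 were higher and 8 lower in suffixes 4 to 6, beside 16.1% and 17.9% of all genes. The counts were 5 and 6 in 7 to 9 (10.1% and 9.14%) and 3 and 2 in 10 to 12 (1.23% and 0.555%). No gene of the list was called between the labels. In 4 to 6 the acute phase gene Lrg1 (4.35), the metalloproteinase inhibitor Timp1 (3.81) and Lcn2 (2.33) rose most, all 3 from the STAT3 targets of the list. The receptor gene Cntfr (-1.93) and the STAT3 targets Bcl6 (-1.04) and Bcl3 (-0.96) fell most. In 7 to 9 the largest changes were again Lrg1 (2.88), Timp1 (2.26) and Lcn2 (1.33), and Cntfr (-1.93), Steap4 (-0.89) and Il11ra1 (-0.84). In 10 to 12 Nfkbiz (0.88), Zfp36 (0.87) and Arid5a (0.52), which act on Il6 transcription or mRNA decay, rose, and Cntfr (-1.45) and Il11ra1 (-0.79) fell.

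The study used these cells to find genes that go with Hk2, the gene of the glycolytic enzyme hexokinase 2, so the members were compared between the 5939 fibroblasts with an Hk2 UMI and the 6125 without, summed per library. Here 5 of 10 members were higher and none lower, while 6.98% of all 11315 genes were called (3.92% higher, 3.07% lower), and the median log2 fold change of the members was 0.56 beside -0.01 for all genes. All 4 ligands were among the 5, with Osmr. Lif averaged 14.5 ± 12.1 CPM in positive and 5.59 ± 4.02 in negative sums and was higher in 11 of 12 libraries (1.40, SE 0.15, edgeR adjusted p = 1.14e-06). Osmr averaged 86.0 ± 14.3 and 51.2 ± 9.70 CPM and was higher in 12 of 12 (0.87, SE 0.10, edgeR adjusted p = 1.35e-06). Clcf1 averaged 22.3 ± 8.02 and 13.9 ± 2.27 CPM (0.80, SE 0.11, edgeR adjusted p = 9.95e-06) and Il11 11.5 ± 8.98 and 8.32 ± 6.52 CPM (0.66, SE 0.24, edgeR adjusted p = 0.043), a call lost under 5 other settings (SD, n = 12).

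**Figure D5:**
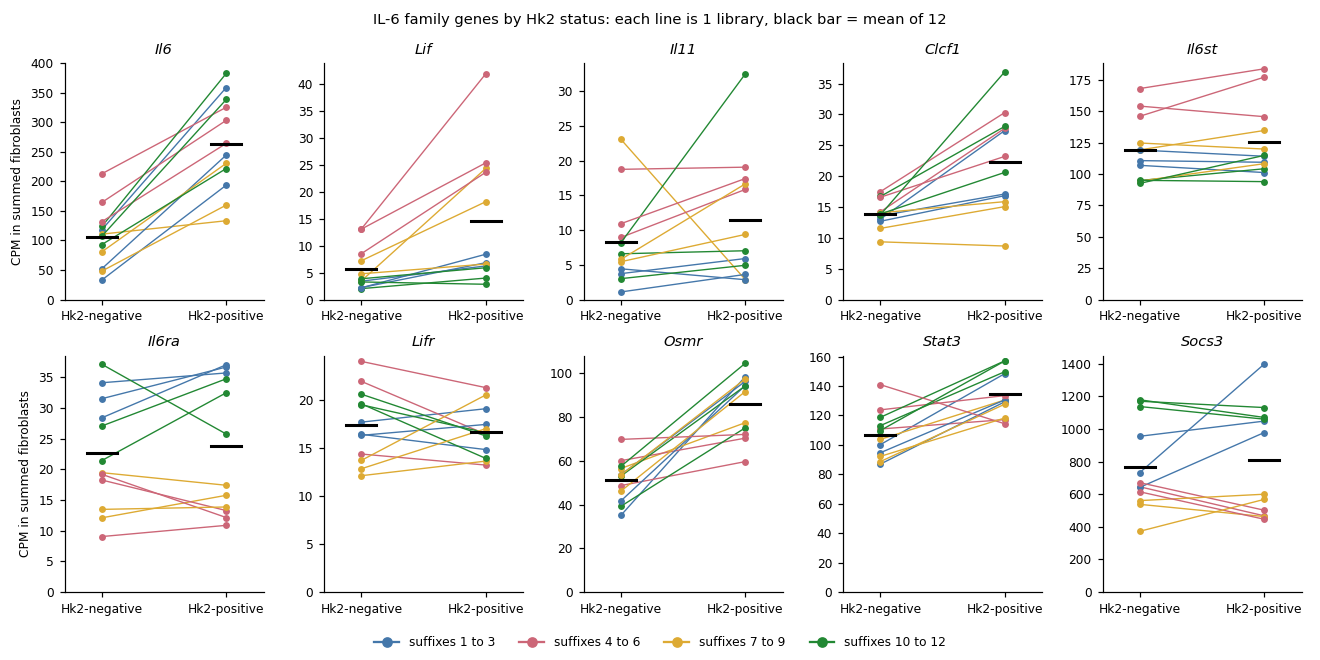
Levels of the 10 members in fibroblasts with and without an Hk2 UMI, in CPM, 1 panel a gene; each line joins the negative and positive sums of 1 of the 12 libraries, coloured by run of barcode suffixes, and black bars are the means. Il6 and Osmr were higher in the positive sum in 12 of 12 libraries, while Socs3 was higher in 5 of 12.

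Il6 differed most (263 ± 79.9 and 106 ± 50.8 CPM), and its log2 fold change of 1.51 was 1.66 with cells matched in UMIs and 1.16 with cells matched in cluster. Stat3 was higher in 11 of 12 libraries but under the fold limit (0.46, edgeR adjusted p = 2.63e-05), and it was called when a positive cell needed 2 Hk2 UMIs (0.52). Socs3, Il6st, Il6ra and Lifr were higher in 5, 6, 8 and 5 of 12. A positive call needs a captured Hk2 molecule, so depth enters it. The positive cells of a library averaged 5624 to 8580 UMIs and the negative ones 4805 to 6175, and when cells were thinned to 2000 UMIs before the status was set, 3 members were called, without Clcf1 (0.45) and Il11 (0.06). The share of all genes called after this thinning is not given here, so that count has no background beside it. Of the pathway list 12 of 33 tested genes were higher and none lower, beside 3.92% and 3.07% of all genes. Among them were 6 of 11 STAT3 targets tested and 3 of 6 genes of receptor shedding and Il6 mRNA decay. The largest changes were those of Bcl3 (0.99), Arid5a (0.83) and Nfkbiz (0.78).

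As a description of which genes varied like the members over the 12 fibroblast sums, the highest correlations of log2(CPM + 1) were taken among 7190 genes. The sums share the differences between runs, so a high r mostly says that a gene followed the same runs. For Il6 the first was Clcf1 (r = 0.931), another member, followed by Smim3, Pgs1, Selk and Eif4e (0.873 to 0.884). For Socs3 they were Arl4a (0.986), the immediate early gene Junb (0.974), Sirt1, Myc and Id3 (0.965 to 0.967). For Lif they were Ccdc12 (0.970), Ost4, Phb2, Dad1 and Syngr2 (0.951 to 0.964), and for Il6st Cisd2 (0.953), Zfp593, Haus7, Sf3b3 and Bzw2 (0.941 to 0.952).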

How the data were processed

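UMI counts per gene and cell of 12 libraries were used as the authors deposited them, whole numbers made with the 10x Genomics Single Cell 3′ version 2 kit and CellRanger 2.1.1 on mm10. The median deposited cell held 5358 UMIs in all libraries, and whether the counts were equalized in depth is not given in the sources used here. The study's limits were applied (more than 500 and fewer than 5000 genes, more than 500 UMIs, and an upper limit on UMIs, 20000 in 6 libraries and higher in those labelled peak and resolving). Cells were clustered in Python 3.11.15 (scanpy 1.11.5, numpy 2.4.6, pandas 2.3.3, scipy 1.17.1, scikit-learn 1.9.0, igraph 0.11.9, leidenalg 0.10.2) with 2000 variable genes, 30 principal components, 20 neighbours and Leiden resolution 1. Cluster names rest on marker lists, with limits set after the clusters were seen. Scrublet's own threshold marked 56 cells (0.279%), too few to count as working, so no doublets were removed in the main results.

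UMIs were summed per library over at least 10 cells and tested with the two-sided quasi-likelihood test of edgeR 4.0.16 (limma 3.58.1, R 4.3.3), TMM scaling, filterByExpr and Benjamini-Hochberg adjustment over all genes tested. Cell types and Hk2 status had the library as a block, stage labels and barcode runs no block. The alternatives were RLE size factors, no filter, DESeq2 1.42.0, no or another block, other limits on cells, thinning to 2000 UMIs, doublets removed (the 6% highest scores), matched cells and libraries left out. The main model of each comparison was run on simulated data, though not every contrast was scored. Of the alternatives only DESeq2 was run in this way, and not for cell types. The outcome is not given here.

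The text names all 10 members, the 3 largest called changes each way of the pathway list, and the 5 genes most like Il6, Lif, Socs3 and Il6st. The members and lists were chosen with earlier results of these data known. Of the pathway list, 1 gene is not analysed here, and some of the largest changes are not reported here. Reads were not resolved between overlapping genes. The replicate numbers were not taken as a pairing of the libraries.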

Additional observations from a re-analysis of the deposited data

Results flagged for a closer look

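In 35 groups of 4 to 10 sums of a member in a cell type, 4 had a highest library that stood far from the others by Dixon's criterion, where chance alone gives about 1 in 20. None of the 10 patterns by Hk2 status was flagged here, in a screen apart from the edgeR test above, which called 5 of the 10 members.

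Il11 in chondrocytes was 466 CPM in resolved 2 (61 UMIs over a sum of 17 cells), beside at most 120 CPM in the other 7 libraries, and Lif in the chondrocytes of the same library was 45.8 CPM (6 UMIs), beside at most 17.1. The Il11 difference from fibroblasts does not rest on this library alone, since 7 of 8 chondrocyte sums were above the fibroblasts of their library. Il11 in lymphatic endothelial cells was 942 CPM in peak 2 (66 UMIs, all in 2 of its 16 cells) and 0 in the other 9 libraries. Lifr in proliferating cells was 21.8 CPM in rest 3 (5 UMIs over 23 cells), beside at most 11.2 in the other 5.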

How the results depend on the processing

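Each member value that passed the threshold was read again under the alternatives tried, and pairs of value and alternative were counted. Between cell types 417 pairs kept their direction and threshold, 17 missed the threshold and 4 turned. Between barcode runs these numbers were 180, 29 and 1, and by Hk2 status 34, 6 and 0. The values that turned were Il11 in lymphatic endothelial cells (-6.80 with doublets removed, a fit to sums that hold 0 UMIs, where counts allow at least 1.97-fold lower), Il6 in tenocytes (-0.35 at Leiden resolution 0.5, -0.41 without upper limits per cell), Lifr in tenocytes (-0.29 without upper limits) and Socs3 in suffixes 4 to 6 (0.20 with equal shares of 8 clusters). The calls between cell types numbered 50, and 42 to 58 under the alternatives. Those between runs numbered 10, 7 to 11 with 1 library left out at a time, and 2 with equal shares, and those by Hk2 status 5, and 3 when cells were thinned before the status was set. The name tenocyte covered 748 cells in the main clustering, 2604 at Leiden resolution 0.5, and clusters of 1355 and 1352 cells without upper limits. The tenocyte values that turned thus compare different sets of cells under the same name. For thinning before the Hk2 status was set, the share of all genes called is not given here. The cause of the changes in the calls was not tested. Equal shares and the addition of the unnamed Spon2 cluster to the fibroblasts were chosen after the data were seen. RLE scaling moved the median of all genes by more than 0.1 in 5 of 10 cell types (-0.0919 to 0.383) and the share of higher calls over all genes from 39.5% to 46.6%, and gave 19 higher and 35 lower members in place of 14 and 36, with no called member turned. Between labels, 0 members were called with any library left out, and 0 with the replicate number as a block. The deviations of same-numbered libraries from their label means had r from -0.539 to 0.683 over 18 pairs. In each such pair within 1 run of suffixes r was positive, and in pairs across runs it had both signs. The numbers were therefore not taken as a pairing. Low counts limit Lif, Il11 and Il6ra in the rarer types.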

Other observations

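Values of 3 groups of cells belong in no comparison above and were chosen after they were seen. The vascular endothelial cells formed a cluster led by Timp4, Aqp7 and Car4 (1072 cells) and another led by Fam167b, Plvap and Tmem252 (699 cells). Il6 averaged 204 ± 176 CPM in the first and 400 ± 109 in the second, Il6st 86.5 ± 42.7 and 250 ± 87.8, and Socs3 1869 ± 357 and 1342 ± 428 (SD, n = 12 libraries each). The second cluster thus held the higher means of the ligand and the shared receptor chain and the lower mean of the feedback gene. Lrg1, a STAT3 target of the pathway list, is among its 10 leading genes.

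The unnamed cluster led by Cfd and Adipoq, genes of fat cells, held 28 cells and 144 Il6 UMIs, 1060 CPM of its pooled UMIs, with 1774 CPM of Socs3 and 73.6 CPM of Il6ra. The unnamed cluster led by Spon2 and C1qtnf3 (1531 cells) was low in these members, with 34.8 ± 20.0 CPM of Il6, 329 ± 103 of Socs3 and 4.31 ± 2.38 of Il6ra (SD, n = 7 libraries). All 7 fibroblast markers were seen in at least 30% of its cells. Its leading genes held the tenocyte markers Tnmd and Kera and no fibroblast marker, so it stayed unnamed. Its means of Il6 and Socs3 lay under those of every fibroblast cluster ordered above, while its Il6ra mean did not.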
